A study of Mus musculus with 4 samples.

Results

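The transcripts described here are 10 genes of the p53 pathway, Mdm2, Aen, Cdkn1a, Ccng1, Zmat3, Trp53inp1, Bax, Bbc3, Sesn2 and Phlda3, taken by gene name from the m6A peak lists of mouse macrophages, where 13067 genes were named in all. They account for 23 of 21031 peaks in the KO list, 17 of 16709 peaks in the WT list and 4 of 6050 peaks in the authors' deposited table of differences. The cells were macrophages of C57BL/6 mice, differentiated from bone marrow in M-CSF, the growth factor of the macrophage lineage, until day 7. KO cells had the genotype LysM-cre, Mettl3fl/fl and WT cells the genotype Mettl3fl/fl, so both carried floxed Mettl3 and only the KO cells carried the Cre, which is expressed from the lysozyme 2 gene in myeloid cells. Mettl3 encodes the catalytic subunit of the enzyme that writes N6-methyladenosine (m6A) into RNA. Each genotype had 1 IP library, from fragments of poly(A) RNA precipitated with an antibody against m6A, and 1 input library, from fragments before precipitation. With 1 library per group, no difference between KO and WT has a replicate check, and no test was run here. The number of animals behind each library, their age and the depth of the libraries are not given in the sources used here, and the level of Mettl3 itself was not analysed here.

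The transcription factor p53 is stabilised by DNA damage and other stresses and switches on genes that stop the cell cycle, trigger cell death or adjust metabolism. MDM2, itself a product of a p53 target gene, marks p53 for degradation and so closes a feedback loop. m6A lies mostly near stop codons and in 3′ untranslated regions (UTRs) of messenger RNA, where it influences the stability and translation of the transcript.

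Promoter windows of RefSeq (build GRCm38.p6, 250 bases before to 50 bases after a start site) were found for 8 of the 10 genes, 12 windows in all. They are shown for the p53 decamer, the 10-base unit of the p53 response element. The genes were chosen as members of the p53 pathway, so the decamer is not a feature independent of that choice. The decamer stood in 6 of the 12 windows, against 8.36% of all 32851 windows. The single decamer of Aen counts in both of its overlapping windows. A decamer is its own reverse complement as a pattern, so each match counts for both strands. Capitals mark the decamer in these stretches, each read 5′ to 3′ on the strand of the gene.
Cdkn1a, chr17:29090898-29090923: ctgggtggGGACTAGCTTtctggcct
Cdkn1a, chr17:29090920-29090945: gccttcagGAACATGTCTtgacatgt
Mdm2, chr10:117710927-117710952: tcggatagGAACTTGCCTagcgacca
Ccng1, chr11:40755454-40755479: acctgcccGGGCAAGCCTtggcactg
Bax, chr7:45467082-45467107: catatcccAGGCAAGCTTtgaacttg
Aen, chr7:78895929-78895954: ccgaagccGGGCTTGTCCgggcaagg
The decamers of Cdkn1a began at -73 and -51 relative to the start site, and they were the only pair in the member windows with a spacer of at most 13 bases, an arrangement that 24 of the 32851 windows held. Those of Mdm2, Ccng1 and Bax began at -186, -185 and -201. The decamer of Aen lay in both of its overlapping windows, at -121 from one start site and at 11 from the other. None was found in the windows of Bbc3, Phlda3 and Sesn2. A match describes letters only, and binding of p53 was not measured.

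The peak lists give, for each region where the IP exceeded the input of the same genotype, the authors' fold enrichment and p, which serve here to describe peaks within a list. Peaks carried by a spliced transcript come in several exonic blocks, and peak lengths below are exonic. Of the 10 genes, 9 had a named peak in the KO list and 8 in the WT list. Among all 13035 genes with a peak in either list, 11675 were named in the KO list and 9875 in the WT list. Bax was named in the KO list only, as were 24.2% of the 13035 genes with a peak in either list, and Sesn2 was named in neither. The fold ran from 1.22 to 16.5 with a median of 2.36 in the KO list, and from 1.40 to 28.6 with a median of 3.47 in the WT list, beside medians of 3.15 in the whole KO list and 3.74 in the whole WT list. The 3′ UTR held 15 of 23 KO peaks and 9 of 17 WT peaks (65.2% and 52.9%), beside 64.1% and 59.6% in the whole lists. In 5′ UTRs lay 3 of 23 KO peaks and 5 of 17 WT peaks, the WT share being 29.4%, beside 2160 of the 21031 peaks in the whole KO list and 2166 of the 16709 in the whole WT list. The others were annotated to other exons. The false discovery rate, the expected share of false calls, was below 0.05 for 18 KO peaks and 16 WT peaks (78.3% and 94.1%), beside 64.9% and 70.2% in the whole lists.

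**Figure D1:**
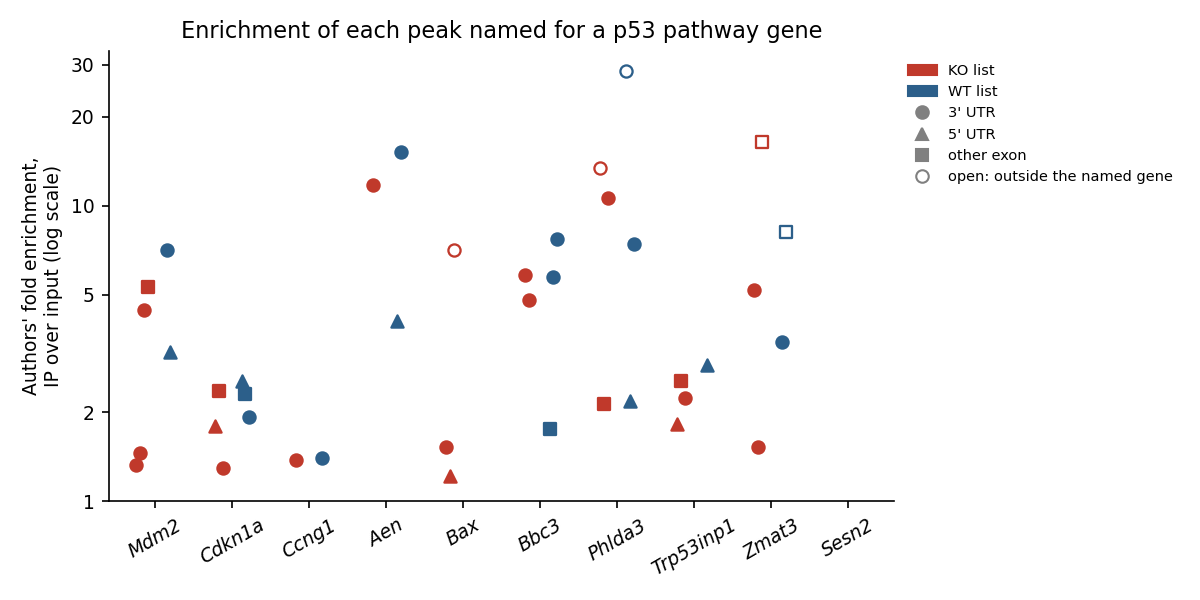
Fold enrichment of IP over input (log scale) for each of the 23 KO peaks (red, left) and 17 WT peaks (blue, right) named for the 10 genes, with the transcript part as the shape and open symbols for peaks outside the RefSeq extent of the named gene. Aen, Bbc3, Mdm2 and Phlda3 had strong peaks in both lists, Ccng1, Cdkn1a and Trp53inp1 stayed below 3-fold in both, and Sesn2 had no named peak.

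Position was largely shared between the genotypes on the WT side. At least 1 exonic base was shared with the other list by 13 of 23 KO peaks (56.5%, background 61.6% of all KO peaks) and by 15 of 17 WT peaks (88.2%, background 73.4% of all WT peaks). The 10 KO peaks without a WT counterpart were 3 of Bax, 2 of Mdm2, 2 of Trp53inp1, 2 of Zmat3 and 1 of Phlda3. Of the 3 Bax peaks, 2 overlap each other and are not separate sites. The 2 WT peaks without a KO counterpart were 1 of Zmat3 and 1 of Phlda3. Several of these were weak: in the KO list, 1 peak each of Bax, Mdm2, Phlda3, Trp53inp1 and Zmat3 had a false discovery rate above 0.05.

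Mdm2, the ubiquitin ligase that restrains p53, carried the most significant peak of the group in both genotypes. Its 3′ UTR peak had a fold of 4.43 over 1227 bases in KO (chromosome 10, 117689712 to 117691297, build mm10) and 7.10 over 1286 bases in WT (117689712 to 117691356), with a log10 p of -182 in KO and -331 in WT. Both peaks ended 837 bases before the 3′ end of the gene and consisted of 2 blocks, and all 1227 KO bases lay in the WT peak. The KO list added 2 weak peaks between that region and the 3′ end of the gene, with folds of 1.33 and 1.46. Near the 5′ end, each list held a peak of 91 bases, at 5.31-fold in KO (117710200 to 117710290) and 3.21-fold in WT (117710230 to 117710579), of which 61 bases were common.

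The cell cycle members had weak peaks. Cdkn1a encodes p21, an inhibitor of cyclin-dependent kinases. Its 3′ terminal peak had a fold of 1.29 over 210 bases in KO (chromosome 17, 29100518 to 29100727) and 1.93 over 120 bases in WT (29100608 to 29100727). Its 5′ UTR peak had a fold of 1.80 over 240 bases in KO and 2.55 over 956 bases in WT. A further peak near a downstream start site of RefSeq, annotated to the exon of an Ensembl gene other than Cdkn1a, stood at 2.36-fold over 389 bases in KO and 2.30-fold over 718 bases in WT. It overlaps the 5′ UTR peak in both lists, so these 2 peaks of each list are not separate sites. Ccng1 encodes cyclin G1, which acts with protein phosphatase 2A on MDM2. It had a single peak at the very 3′ end of the gene, at 1.38-fold over 209 bases in KO and 1.40-fold over 120 bases in WT (chromosome 11, starting at 40748552 in both lists). Nearly all peaks of either list were stronger: 5.17% of KO peaks and 6.16% of WT peaks had a lower fold than these.

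Among the cell death members, Aen and Bbc3 had strong peaks and Bax weak ones under its own name. Aen encodes a nuclease that promotes apoptosis. Its KO list entry was a single peak of 7 blocks and 2094 bases from the 5′ end into the 3′ UTR, at 11.8-fold (chromosome 7, 78895854 to 78907502). The WT list divided the same stretch into a 5′ UTR peak of 599 bases at 4.08-fold (78895944 to 78899569) and a 3′ UTR peak of 1286 bases at 15.2-fold (78900562 to 78907621). The KO peak contained all 599 bases of the first and 1167 bases of the second, so the smaller number of KO peaks is not a lost site. Part of the 5′ region lies in a RefSeq promoter window, whose letters can therefore be read. Within it the m6A core GGAC (capitals) occurred at 2 places under the peaks of both lists, shown as the sequence context available for a member peak.
Aen, chr7:78896015-78896038: gtgagctaggGGACggccacaggg
Aen, chr7:78896074-78896097: gtggctctcgGGACgggttggttt
GGAC stood on the strand of the gene in 65.6% of all promoter windows, and in 18.9% within the 50 bases after the start site, where the second of these places lies. The longer form GGACT was not found in the covered part. A downstream promoter window of Cdkn1a (chromosome 17, 29093519 to 29093818) was also covered by peaks, in 194 bases in KO and 300 bases in WT, and held no GGAC there. GGAC was searched on the strand of the gene only, and it also makes up the first letters of the upstream Cdkn1a decamer.

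Bbc3 encodes PUMA, a BH3-only protein that frees BAX and BAK to act. Its main 3′ UTR peak stood at 5.81-fold over 1018 bases in KO (chromosome 7, 16312278 to 16317697) and at 5.76-fold over 808 bases in WT (16313649 to 16317756). The terminal peak, 129 bases from the 3′ end of the gene, stood at 4.80-fold over 300 bases in KO and 7.70-fold over 390 bases in WT. The other WT peak, of 1.76-fold and 181 bases, lay in an exon that the main KO peak also covers, in 91 of those bases. The peaks of this gene therefore lay at the same places in both genotypes and were divided differently. Bax encodes the pore-forming protein of the mitochondrial outer membrane. It had 3 named peaks in KO and none in WT. Of these, those at 1.53-fold and 1.22-fold lay at least partly in the gene. They overlap each other there and are not separate sites. The peak at 7.08-fold (chromosome 7, 45471677 to 45471827) lay in no RefSeq gene and had a false discovery rate above 0.05.

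Phlda3, an inhibitor of the kinase AKT, had a 3′ peak at 10.6-fold over 690 bases in KO (chromosome 1, 135767227 to 135769136) and 7.40-fold over 750 bases in WT (135767167 to 135769136). The strongest peak named for it, at 13.4-fold in KO (135751817 to 135752232) and 28.6-fold in WT (135751699 to 135752232), lay in the neighbouring Csrp1 and not in Phlda3. Trp53inp1, a stress protein that also takes part in autophagy, had a 5′ UTR peak in both lists, at 1.83-fold over 241 bases in KO (chromosome 4, 11156491 to 11164494) and 2.89-fold over 331 bases in WT (11156431 to 11164524). Its 2 further KO peaks had folds of 2.56 and 2.23. Zmat3 encodes a zinc finger protein that binds RNA. Its 3′ UTR peaks lay at different places, at 5.20-fold and 1.52-fold in KO and at 3.47-fold in WT. The peak named for Zmat3 at 16.5-fold in KO (chromosome 3, 32365716 to 32366014) and 8.16-fold in WT (32365746 to 32366014) lay beyond the RefSeq extent of Zmat3, in the RefSeq extent of the long noncoding 4930429B21Rik. The lists annotate it to the exon of an Ensembl transcript and name it for Zmat3, so its gene cannot be told apart by position. The WT peak had a false discovery rate above 0.05.

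Some peaks in member genes carried the name of a neighbour. Set against RefSeq extents, the tables held 5 KO peaks, 5 WT peaks and 2 differential peaks in Aen, Bax or Sesn2 under other names. None of them overlapped the transcript it was assigned to in the lists. The last 3′ UTR stretch of Aen was named for Isg20: KO peaks of 24.8-fold (868 bases), 9.45-fold (808 bases) and 1.99-fold (151 bases), and WT peaks of 19.4-fold (2363 bases) and 1.73-fold (121 bases). At the 3′ end of Bax, a peak named for the ferritin gene Ftl1 stood at 14.8-fold over 239 bases in KO (chromosome 7, 45461697 to 45461935) and 3.69-fold over 179 bases in WT (45461697 to 45461875). That fold exceeded 94.3% of KO peaks in KO and 49.7% of WT peaks in WT. Sesn2 encodes sestrin 2, which restrains mTORC1 signalling. In its 3′ part, peaks named for the predicted gene Gm12981 stood at 4.43-fold over 540 bases in KO (chromosome 4, 132493350 to 132494550) and at 7.14-fold over 809 bases in WT (132493260 to 132497005). A further WT peak of 2.72-fold, also named Gm12981, reached 38 bases into Sesn2. By position alone, Bax and Sesn2 thus had a peak within their extents in both genotypes, although Bax is named in the KO list only and Sesn2 in neither. The strand of a peak was not used in this placement, so a transcript of the other strand cannot be told apart.

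**Figure D2:**
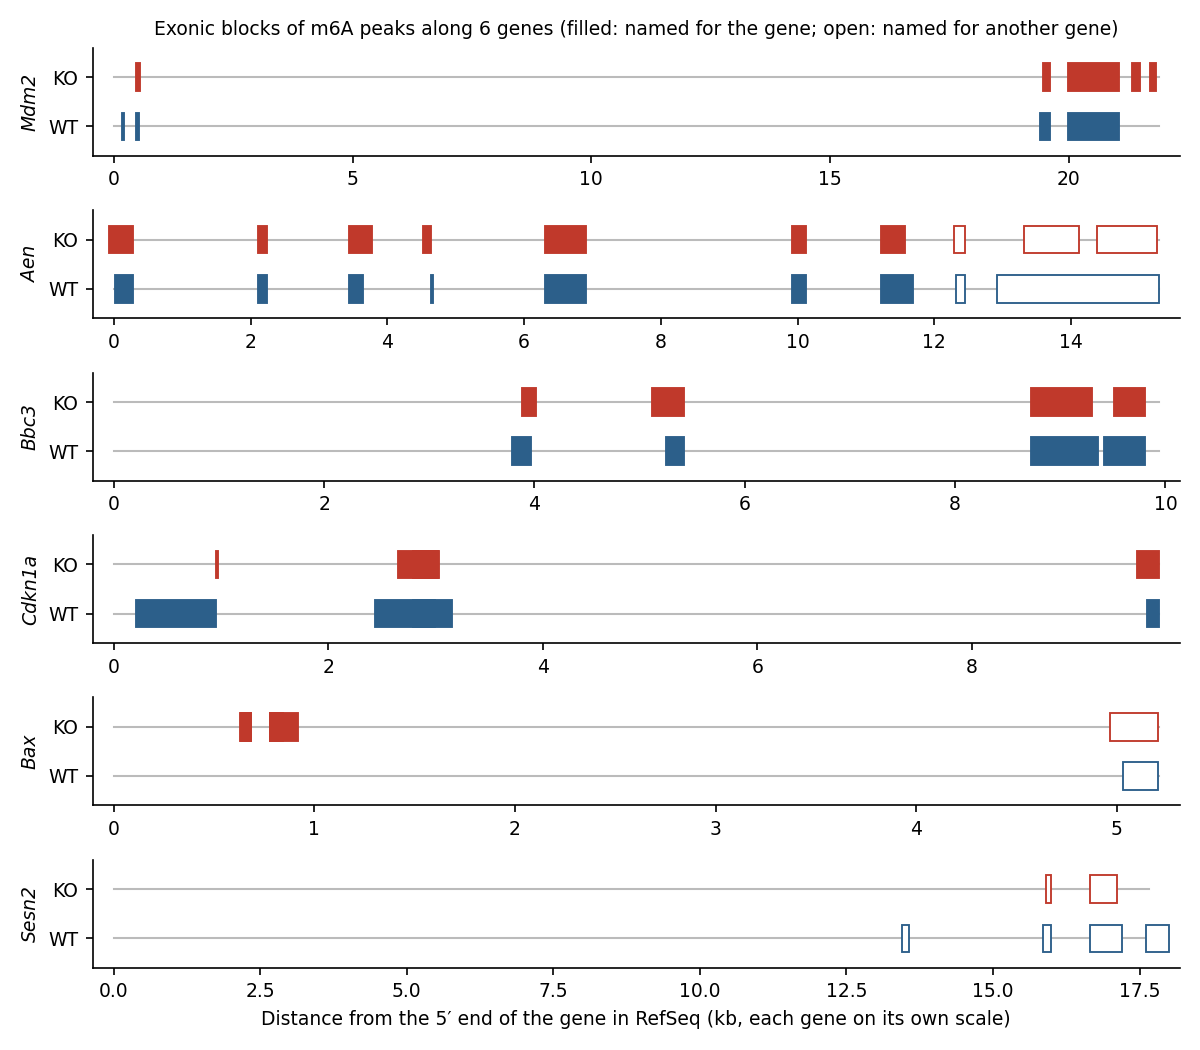
Exonic blocks of the peaks along 6 of the genes, with KO above WT and distance from the RefSeq 5′ end in kb on a separate scale for each gene, where filled blocks carry the gene's own name and open blocks that of another gene. Peaks gather toward the 3′ end in Mdm2, Bbc3 and Sesn2, Aen is covered along its length, and the 3′ end of Bax holds an open block in both genotypes.

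Differences of enrichment at single peaks were listed by name for 4 of the 10 genes. Among the 13035 genes with a peak in either list, 36.0% had a differential peak. All 4 peaks were in 3′ UTRs and lower in KO, beside 69.6% of all listed peaks and 63.2% of those in 3′ UTRs. The authors' deposited table gave log2 ratios of KO over WT enrichment of -0.54 for Aen (a ratio of 0.687), -0.48 for Mdm2 (0.719), -0.38 for Phlda3 (0.770) and -0.32 for Bbc3 (0.801). The median of these 4 was -0.43 beside -0.40 over the whole of the authors' deposited table, and 2 of the 4, Aen and Mdm2, lay below that median. The false discovery rate of the authors' deposited table was 1.58e-13 for Mdm2, 0.000148 for Aen, 0.000251 for Phlda3 and 0.0525 for Bbc3, so that 3 of 4 were below 0.05, beside 79.6% of the table. These rates compare the reads of 4 libraries and not replicates of a genotype. The Phlda3 entry is the peak in Csrp1, which leaves 3 differential peaks within a gene of their own name.

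The same table held 2 more peaks in member genes under neighbouring names, and they went in opposite directions. In the authors' deposited table, the Sesn2 peak named Gm12981 (chromosome 4, 132493320 to 132494580, 600 bases) had a log2 ratio of -0.72, a KO over WT ratio of 0.607, with a false discovery rate of 0.0107. The peak at the 3′ end of Bax named Ftl1 (chromosome 7, 45461697 to 45461905, 209 bases) had a log2 ratio of 0.49 in the authors' deposited table, a KO over WT ratio of 1.41, with a false discovery rate of 0.000550. It was the only higher one, beside 30.4% of the table. Counted by position, 4 peaks were therefore lower in KO (Sesn2, Aen, Mdm2 and Bbc3) and 1 was higher (Bax). For Sesn2, Aen, Mdm2 and Bax, the folds of the overlapping peaks in the KO and WT lists differed in the same direction. For Bbc3 those folds were nearly level, at 5.81 in KO and 5.76 in WT, and its false discovery rate was 0.0525. No differential peak was listed for Cdkn1a, Ccng1, Trp53inp1 or Zmat3, and peaks outside the table were not analysed here.

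**Figure D3:**
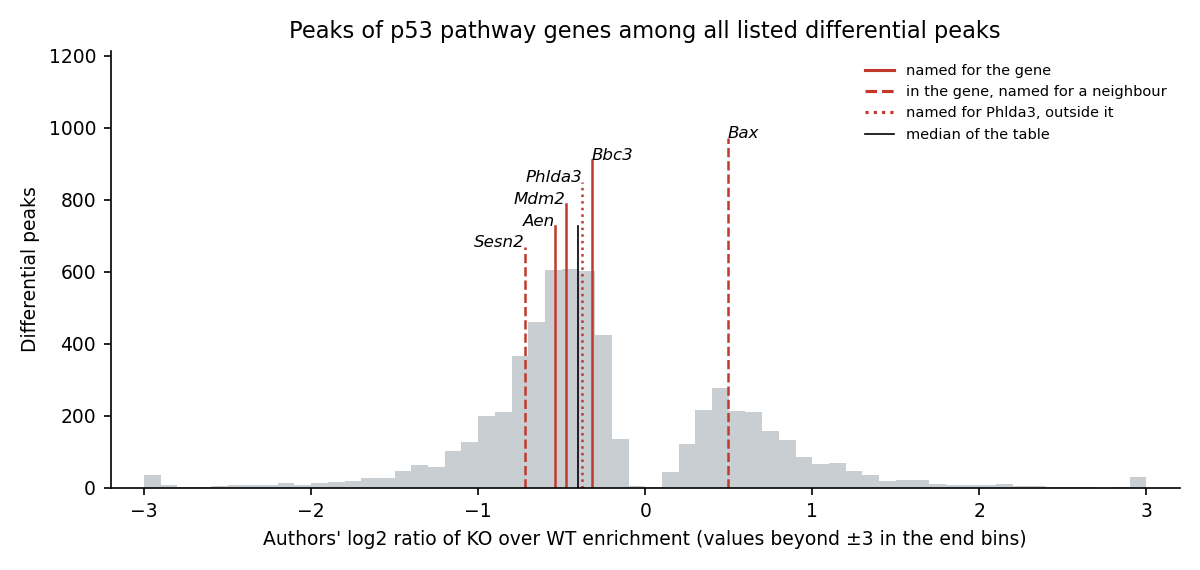
Number of differential peaks in bins of the authors' log2 ratio of KO over WT enrichment (grey), with the member peaks as red lines: solid where named for the gene, dashed where named for a neighbour and dotted for the Phlda3 peak that lies in Csrp1. Sesn2, Aen, Mdm2, Phlda3 and Bbc3 stand between -0.72 and -0.32, around the median of -0.40 (black), and Bax stands apart at 0.49.

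Input levels in FPKM, fragments scaled to transcript length and library size, were listed only for genes with a differential peak, which gave 4 members. In the authors' deposited table, Mdm2 had 16.7 FPKM in the KO input and 14.0 FPKM in the WT input. Aen had 3.10 FPKM in KO and 2.77 FPKM in WT, Bbc3 had 6.31 FPKM in KO and 6.67 FPKM in WT, and Phlda3 had 1.54 FPKM in KO and 1.53 FPKM in WT, in the authors' deposited table. On the log2(FPKM + 1) scale the KO minus WT differences were 0.24 for Mdm2, 0.12 for Aen, 0.0040 for Phlda3 and -0.070 for Bbc3. So 3 of 4 were higher in KO, beside 69.0% of the 3679 listed genes whose mean reached 1 FPKM, and their median of 0.062 lay beside 0.072 for all of these. The authors' deposited table gave p-values from 0.780 to 0.926 for these genes and an adjusted p of 1 for each. Aen and Mdm2, with the lowest ratios among the peaks named for members, also had the most positive input differences. The same input libraries enter the peak ratios, and the part of this in the ratios was not tested. In bulk RNA, a change in the number of cells that express a gene and a change of RNA per cell cannot be told apart.

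**Figure D4:**
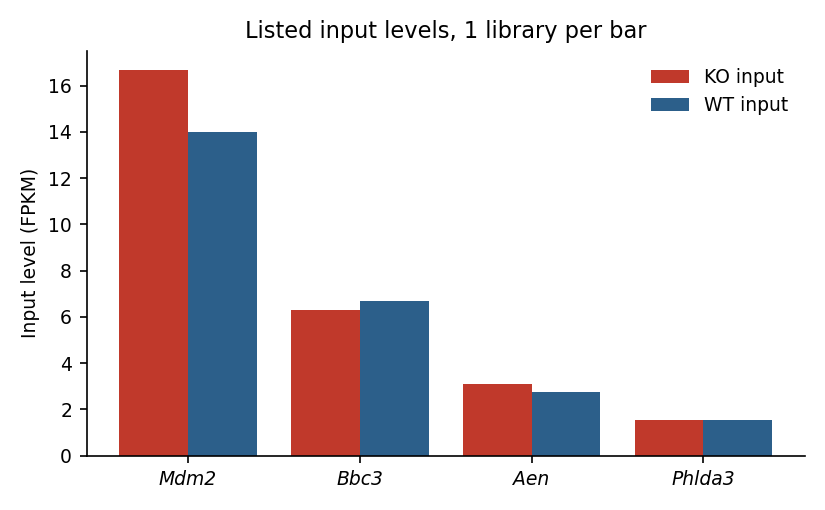
Input level in FPKM of the 4 members with a listed value, KO (red) left of WT (blue), 1 library per bar and hence no error bar. Mdm2 is highest in both genotypes, with 16.7 in KO and 14.0 in WT, and the bars of Phlda3 are level.

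Other genes of the pathway were described from a list of 67, arranged by role. A peak in either list was named for 47 of them. Of these 47, 46 had a KO peak and 42 a WT peak, beside 11675 and 9875 of all 13035 genes with a peak in either list. Of the 47 genes with a peak in either list 21 had a differential peak, beside 36.0% of all such genes. The authors' deposited table held 27 such peaks, 22 lower in KO (81.5%, beside 69.6% of the table) and 5 higher (beside 30.4%), and 15 of 27 lay below the median of the table. The median ratio was -0.48. Of the 27, 17 lower and 4 higher peaks had a false discovery rate below 0.05, beside 71.6% lower among all peaks at that rate.

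The counts by role are small and stand beside 69.6% of the table lower in KO. The share of genes with a differential peak stands beside 36.0% of all genes with a peak in either list. The upstream kinases and regulators had 9 lower peaks and 1 higher, in 6 of the 12 genes with a peak in either list, out of 14. The lowest belonged to Trp53bp1, a damage response protein that binds p53, at -1.09 in the authors' deposited table. Mdm4, the relative and partner of MDM2, stood at -0.53, and the kinase gene Hipk2 stood at -0.83 in its 3′ UTR and -0.15 in an exon, in the authors' deposited table. The exon peak of Hipk2 had a false discovery rate above 0.05. The acetyltransferase gene Kat5 stood at 0.77 in the authors' deposited table. The lower peaks of Rchy1, at -0.81 and -0.48 in the authors' deposited table, overlap each other and are not separate sites. Both also lie in Thap6, so their gene cannot be told apart by position. Trp53 itself had 1 peak in each list and no differential one. The cell cycle genes had 3 lower peaks and none higher, at -1.34 for the 14-3-3 protein gene Sfn, -0.25 for Plk2 and -0.11 for Gadd45a in the authors' deposited table. Of these, only the peak of Sfn lay below the median of the table, and that of Gadd45a had a false discovery rate above 0.05. The input of Sfn was low, at 0.901 FPKM in KO and 0.912 FPKM in WT in the authors' deposited table.

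The cell death genes had 7 lower peaks and none higher, beside the same 69.6% lower in the table. These lay in 5 of the 9 genes with a peak in either list, out of 15, beside the same 36.0%. They included peaks of the survival genes Bcl2, Bcl2l1 and Mcl1. The authors' deposited table gave -1.03 for Bcl2, -0.55 for Mcl1 and -0.34 and -0.28 for Bcl2l1. The input of Bcl2 was low, at 0.979 FPKM in KO and 0.918 FPKM in WT in the authors' deposited table. A second peak named for Bcl2, at -0.62 in the authors' deposited table, lay in Kdsr. The genes of metabolism, autophagy and repair had 1 lower peak, at -0.65 in the authors' deposited table for the DNA polymerase gene Polh. They also had 1 that was higher, in Tsc2, for which the authors' deposited table gave 0.86. The adjacent Pkd1 covers the same bases, so the gene of this peak cannot be told apart by position. The other targets had 2 lower and 3 higher peaks. Dcxr, which encodes an enzyme of sugar metabolism, stood at 0.56 in the authors' deposited table. The peak named for Ercc5, at -1.03 in the authors' deposited table, lay in Bivm.

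**Figure D5:**
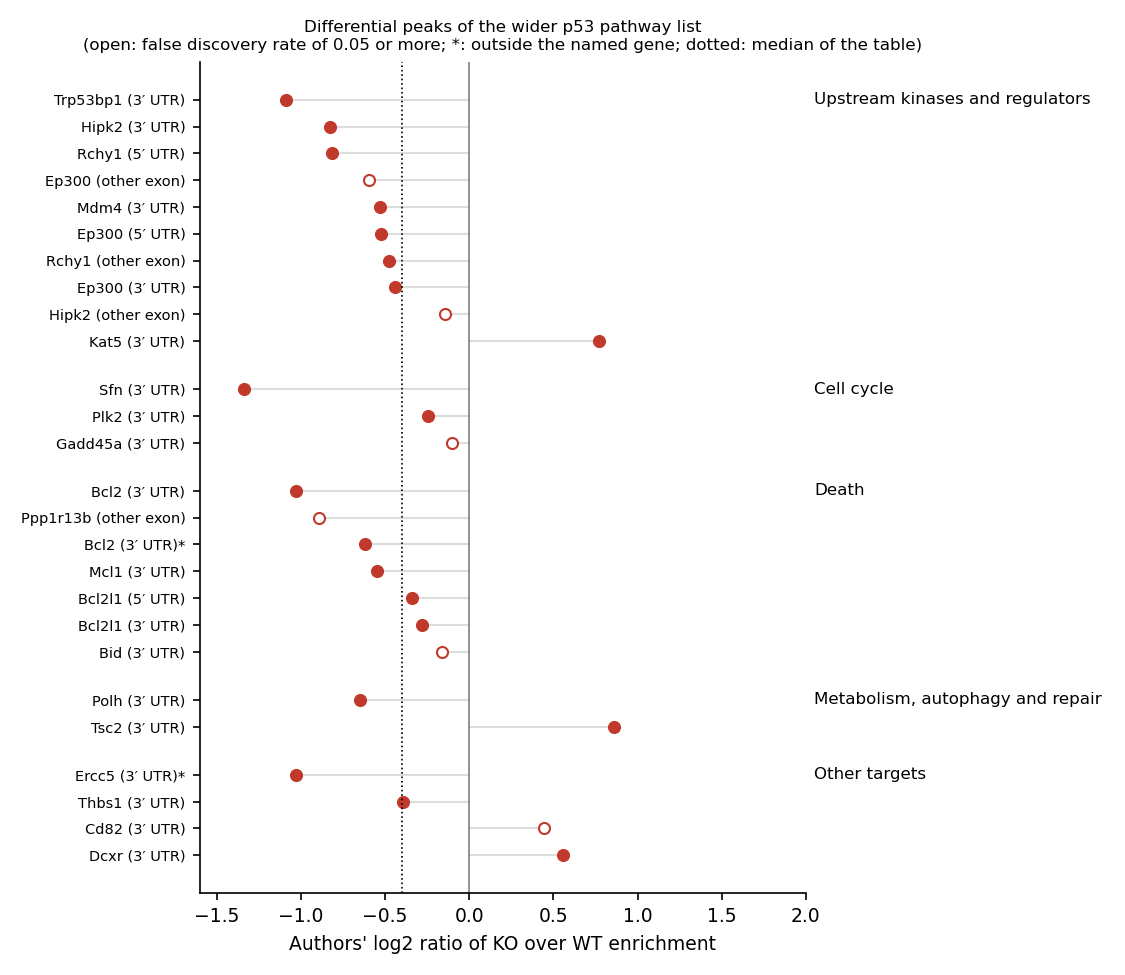
Authors' log2 ratio of KO over WT enrichment for differential peaks of the wider list, 1 row per peak, arranged by role, with open symbols at a false discovery rate of 0.05 or more and asterisks for peaks outside the named gene. The 22 lower peaks lie left of 0, and those of Kat5, Tsc2, Cd82 and Dcxr lie right of it.

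Input levels were listed for 19 of these genes whose mean reached 1 FPKM, of which 14 were higher in KO (beside 69.0%) and 5 lower (beside 31.0%), with a median log2 difference of 0.090. The largest differences were those of Thbs1, thrombospondin 1, at 15.5 FPKM in KO and 7.95 FPKM in WT, and of Gadd45a, a growth arrest gene, at 37.0 FPKM in KO and 57.4 FPKM in WT, in the authors' deposited table. Mcl1 stood at 239 FPKM in KO and 207 FPKM in WT, and Polh at 1.36 FPKM in KO and 1.05 FPKM in WT, in the authors' deposited table. The kinase gene Plk2 stood at 24.7 FPKM in KO and 30.6 FPKM in WT, Hipk2 at 23.7 FPKM in KO and 25.7 FPKM in WT and Dcxr at 14.5 FPKM in KO and 15.7 FPKM in WT, in the authors' deposited table. On the log2(FPKM + 1) scale these differences ran from -0.62 for Gadd45a to 0.88 for Thbs1.

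As to the identity of the cells, 6 of 10 macrophage markers had a listed input level, from 58.4 to 6615 FPKM in KO and from 40.6 to 10533 FPKM in WT, with a summed level of 8236 FPKM in KO and 12093 FPKM in WT, in the authors' deposited table. Of 7 neutrophil markers 2 were listed, S100a8 and S100a9, with a summed level of 137 FPKM in KO and 233 FPKM in WT, in the authors' deposited table. Of 5 dendritic cell markers only Itgax was listed, at 46.7 FPKM in KO and 71.9 FPKM in WT, and of 5 B cell markers only Cd79b, at 0.734 FPKM in KO and 1.12 FPKM in WT, in the authors' deposited table. The summed level of each of these 4 cell types was lower in KO. The macrophage sum came mostly from its highest marker and does not describe each marker. Without the highest level of each genotype, 6615 FPKM in KO and 10533 FPKM in WT, the macrophage sum was not lower in KO. The lowest listed macrophage level was higher in KO, at 58.4 FPKM beside 40.6 FPKM in WT, in the authors' deposited table. No marker of T and NK cells, erythroid cells or stromal cells had a listed level, which says little of their presence, since levels were listed only for genes with a differential peak. A peak was named for 8 of 10 macrophage markers in KO and 6 in WT, and for 2 of 7 neutrophil markers in KO and 3 in WT. The same held for 3 of 5 dendritic cell markers in KO and 2 in WT, and for 1 of 5 B cell markers in each list. A peak was named for 3 of 6 stromal markers in KO and in WT, for 1 of 5 erythroid markers in KO and none in WT, and for no marker of T and NK cells. The part of these differences in the p53 pathway values was not tested.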

How the data were processed

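The data are m6A-seq of KO and WT macrophages, 1 IP and 1 input library each. Per the submitters' processing notes, the tools included edgeR, StringTie, ChIPseeker, HOMER, HISAT2 and fastp, with no roles stated, and the genome was mm10. Which program called peaks: not given in the sources used here. Per the file headers, the authors deposited for each peak its fold enrichment, the IP to input ratio, a p-value and log10 scores of the p-value and false discovery rate. Per the file headers, a deposited table holds log2 values of enrichment, KO relative to WT, each with a p-value. Every p in that table was under 0.05. The authors deposited input levels in FPKM with their own p-values for genes in that table, and 370 of its rows have no level. Start positions in the files count from 0 and are given here counting from 1. No column went unused for lack of a sample.

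Members were taken by gene name. Peaks were compared on exonic blocks, ignoring strand, with at least 1 shared base, by code tested on simulated data, and set against RefSeq gene extents (GRCm38). Input differences (KO minus WT) were taken after adding 1 FPKM and converting to log2, which shrinks those of low genes. No p-value was computed here. The depth of the libraries is unknown, so no interval is given. A planned count of GGAC in all member peaks was not made, since no genome sequence was used here, and GGAC was searched in promoter windows instead. From the wider list, the rule named the 4 lowest and 4 highest peak ratios, 1 per gene, and the 4 largest input increases and decreases. A gene so named is not reported here, though the counts include it. Further genes of that list were named after their values were seen. The members and lists were chosen with earlier results of these data known. Alternatives were stricter peak limits (4-fold, p of 1e-10), reciprocal overlap of 50%, a false discovery rate under 0.05, centring on medians, a pseudocount of 0.1 FPKM, no filter on low values and assignment by RefSeq extent. Python 3.11.15, numpy 2.4.6, pandas 2.3.3 and matplotlib 3.10.9 were used.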

Additional observations from a re-analysis of the deposited data

How the results depend on the processing

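Of the member peaks, 10 in KO and 8 in WT had at least 4-fold enrichment (43.5% and 47.1%), beside 40.5% and 48.0% of the whole lists. A p of at most 1e-10 was reached by 4 in KO and 6 in WT, so that the KO list was not the longer one at that limit. With at least 4-fold enrichment, 8 KO and 8 WT peaks shared a base with the other list. For that p limit and for sharing at 4-fold, the shares over all peaks are not given here. Set against the median of the authors' deposited table, 2 member peaks were lower in KO and 2 higher, and of the wider list 12 were higher. Counted by position whatever gene was named, a choice made after seeing the data, 1 member peak was higher. The median input difference of the 4 members turned to -0.0093, and that of Phlda3 to -0.068, once the median of all listed genes was subtracted, which follows from the centring itself. The other 32 results under alternatives kept their direction, some at other sizes. Set against the same medians, the lower peaks of the wider list numbered 15 in place of 22, its median input difference was 0.018, and the input differences were 0.049 for Aen and -0.14 for Bbc3. No paired analysis was possible because each group holds 1 library. With 1 library per group, leaving out a replicate was not possible either. Depth is unknown, so peaks absent from a list may lie below its detection limit.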
